A study of Mus musculus with 6 samples.

Results

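The defensin genes are the 71 protein-coding genes of the mouse RefSeq table (assembly GRCm38.p6, mm10) whose symbols start with Defa or Defb, of 21887 protein-coding genes on chromosomes 1 to 19, X and Y. There are 29 alpha-defensin genes (Defa) and 42 beta-defensin genes (Defb). The genes were chosen by symbol, but the family and the interval at 20 to 22 Mb of chromosome 8 were picked because earlier results of these data had shown many peaks there. Counts within 10 kb of the genes, peaks per Mb of each cluster and the contrast of that interval with the Defb clusters are therefore given as descriptions, with no test. The libraries are chromatin immunoprecipitations with a rabbit antibody against BMAL1, a transcription factor of the circadian clock, followed by sequencing (ChIP-seq). They were made from retinas of C57BL/6 mice, 3 of them conditional Bmal1 knockouts (called Bmal1 CKO 1, 2 and 3) and 3 of them wild type (control 1, 2 and 3); neither group was treated. The Cre driver, the retinal cells in which the gene was deleted, the age at collection and the time of day are stated in none of the sources used here. Nothing states that mice or retinas were pooled or kept apart, so p-values measure the spread between these libraries, which may be technical.

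Defensins are short secreted peptides, rich in cysteine, that disrupt microbial membranes. In mice the alpha-defensins, also called cryptdins, are made by Paneth cells of the small intestine and are cut to their active form by the protease Mmp7. Beta-defensins are made by epithelia of skin, airway and kidney, and many of them by the epididymis, where they coat sperm. Both families grew by tandem duplication, so neighbouring genes are often near copies. BMAL1 pairs with CLOCK and binds the E-box CACGTG.

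The 4 shorter peak lists and the 2 longer ones differed by orders of magnitude, and not by genotype. The lists held 1439, 138241 and 519 peaks in Bmal1 CKO 1, 2 and 3, and 179465, 410 and 372 peaks in control 1, 2 and 3. Those are 0.529, 50.8 and 0.191 peaks per Mb in the Bmal1 CKO lists and 65.9, 0.151 and 0.137 in the control lists. The lowest expected background at any summit, a measure of depth recovered from the deposited values, was 2.78, 5.83 and 0.560 fragments in Bmal1 CKO libraries, and 3.46, 0.609 and 0.852 in controls. Arntl, the gene that encodes BMAL1, had 0, 15 and 0 summits in the gene or within 10 kb in Bmal1 CKO libraries and 19, 0 and 0 in controls. A peak of bound DNA does not show whether that gene was deleted.

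Of the 71 genes, 45 have a start site in the RefSeq promoter table, 16 Defa and 29 Defb. The 4 Defa genes below are shown because each had a summit within 250 bp of its start in both long lists, and they show how alike these start regions are. Each sequence is RefSeq GRCm38.p6 and runs 5′ to 3′ on the strand of its gene, with 250 bases before the annotated start in lower case and the first 25 transcribed bases in capitals. Defa23 is chr8:21054790-21055064 (plus strand), Defa2 is chr8:21378267-21378541 (plus), Defa32 is chr8:21528780-21529054 (plus) and Defa42 is chr8:21456493-21456767 (minus).
Defa23: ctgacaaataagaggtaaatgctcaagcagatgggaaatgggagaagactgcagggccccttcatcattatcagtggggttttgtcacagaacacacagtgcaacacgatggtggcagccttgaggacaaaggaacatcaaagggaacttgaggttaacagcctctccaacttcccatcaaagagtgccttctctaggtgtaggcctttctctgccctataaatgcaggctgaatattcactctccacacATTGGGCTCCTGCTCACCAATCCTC
Defa2: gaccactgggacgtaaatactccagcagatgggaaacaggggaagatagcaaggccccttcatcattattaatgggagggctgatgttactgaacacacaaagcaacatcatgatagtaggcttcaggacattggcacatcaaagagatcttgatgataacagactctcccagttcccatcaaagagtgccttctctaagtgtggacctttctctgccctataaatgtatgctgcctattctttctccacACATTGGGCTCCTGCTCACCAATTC
Defa32: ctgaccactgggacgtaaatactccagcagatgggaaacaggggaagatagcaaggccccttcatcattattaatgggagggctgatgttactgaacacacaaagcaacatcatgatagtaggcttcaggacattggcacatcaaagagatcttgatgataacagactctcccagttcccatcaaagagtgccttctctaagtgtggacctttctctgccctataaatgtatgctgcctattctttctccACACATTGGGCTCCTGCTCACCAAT
Defa42: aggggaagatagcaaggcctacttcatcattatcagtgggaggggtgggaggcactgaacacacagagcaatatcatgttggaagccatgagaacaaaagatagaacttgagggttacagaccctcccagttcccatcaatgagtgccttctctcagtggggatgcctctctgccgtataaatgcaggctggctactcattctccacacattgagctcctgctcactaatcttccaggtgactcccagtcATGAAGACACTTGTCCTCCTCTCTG

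Over the 300 bases of the promoter table, from 250 before the start to 50 from it, Defa32 was 98.7% identical to Defa2, and over the 298 bases they share they were 100% identical: the annotated starts lie apart, not the letters. Defa23 was 80.9% identical to Defa2. Defa42 was 61.2% identical to Defa2 over the full length and 79.6% over 265 aligned columns with the ends left free, since its annotated start lies at the ATGAAGA run that opens the coding sequence. That run begins 41 bases after the start of Defa23 and 43 bases after that of Defa2.

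A pair of Defb genes is shown for contrast, at chr2:152604077-152604351 (Defb36, plus strand) and chr2:152596461-152596735 (Defb45, minus strand). Defb36 was the Defb gene with a summit within 250 bp of its start in both long lists, and its capitals again mark the first 25 transcribed bases. Defb45 held the E-box, and there the capitals mark CACGTG, whose first base lies 7 bases before the start.
Defb36: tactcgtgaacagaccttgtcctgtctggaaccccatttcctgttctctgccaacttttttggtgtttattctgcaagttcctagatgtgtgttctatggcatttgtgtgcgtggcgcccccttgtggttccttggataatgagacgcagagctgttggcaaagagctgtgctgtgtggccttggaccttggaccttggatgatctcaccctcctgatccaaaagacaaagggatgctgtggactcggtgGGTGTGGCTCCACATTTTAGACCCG
Defb45: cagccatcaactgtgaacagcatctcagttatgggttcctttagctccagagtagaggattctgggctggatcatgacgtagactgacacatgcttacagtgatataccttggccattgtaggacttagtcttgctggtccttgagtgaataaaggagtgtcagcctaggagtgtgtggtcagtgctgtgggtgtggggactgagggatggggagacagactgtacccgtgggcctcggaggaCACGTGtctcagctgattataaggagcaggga

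The promoter letters of the Defa genes were far more alike than those of the Defb genes. Identity over all 120 pairs of the 16 Defa promoters ranged from 55.1% to 100% with a median of 71.8%, and 17 pairs reached 90%. Over all 406 pairs of the 29 Defb promoters it ranged from 42.3% to 87.8% with a median of 47.4%, and 0 pairs reached 90%. The motif CACGTG, which reads the same on both strands, was in 0 of 16 Defa promoters and in 1 of 29 Defb promoters (3.45%), against 1559 of 17492 promoters of all protein-coding genes (8.91%). Defb45, the gene with the motif, had its nearest summit 7898 bp away in Bmal1 CKO 2 and 966 bp away in control 1. No other list had a summit within 10 kb of it.

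The chromosome 8 interval at 20 to 22 Mb was dense in peaks in every list. It held 110, 255 and 15 peaks in Bmal1 CKO 1, 2 and 3, and 231, 14 and 9 in control 1, 2 and 3. At each list's own mean density, 1.06, 102 and 0.381 peaks were expected in the Bmal1 CKO lists and 132, 0.301 and 0.273 in the control lists, so that observed over expected was 104, 2.51 and 39.3 in Bmal1 CKO and 1.75, 46.5 and 32.9 in control. The interval is 0.0735% of the genome span and took 7.64%, 0.184% and 2.89% of the peaks in Bmal1 CKO lists and 0.129%, 3.41% and 2.42% in control lists.

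These peaks did not lie at the alpha-defensin genes, although the interval is named for them. From 20 Mb to the lower end of Defb33 (chr8:20000001-20892666, 0.893 Mb) the annotation has 21 genes, of which 3 are protein coding, 14 are pseudogenes and 0 are defensins. That stretch held 109 of the 110 interval peaks in Bmal1 CKO 1, 205 of 255 in Bmal1 CKO 2 and 14 of 15 in Bmal1 CKO 3. In controls it held 182 of 231 in control 1, 14 of 14 in control 2 and 9 of 9 in control 3. Observed over expected there was 231, 4.52 and 82.3 in Bmal1 CKO and 3.09, 104 and 73.8 in control. Most of these summits lay outside any annotated gene in every list. The shares were 59.6%, 61.5% and 71.4% in Bmal1 CKO and 64.3%, 57.1% and 55.6% in control. The share of the stretch's own bases outside genes is not given here, so this is not read as a trait of the peaks. The last summit of the stretch lay 194, 194 and 316 kb before the first Defa gene, Defa21, in Bmal1 CKO and 137, 194 and 407 kb before it in control.

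**Figure D1:**
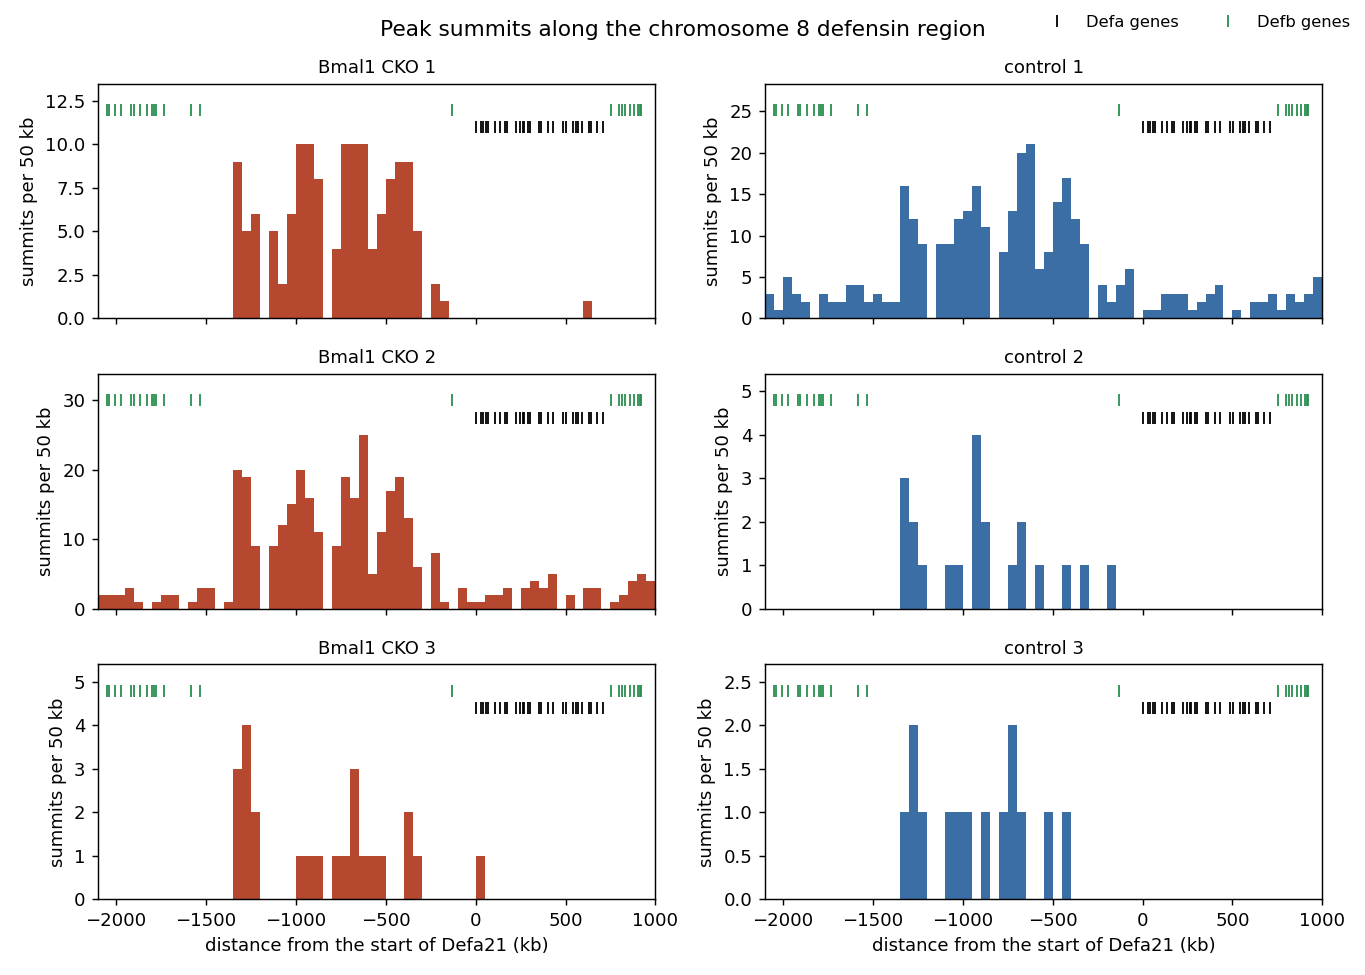
Number of peak summits per 50 kb (vertical axis, scaled per panel) against distance in kb from the lower end of Defa21 on chromosome 8, with the Bmal1 CKO libraries in the left column and the control libraries in the right. Black ticks mark Defa genes and green ticks Defb genes; the summits pile up between the chromosome 8 Defb cluster and the lone Defb33, where no defensin gene lies, in all 6 libraries.

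Ranked among 2732 bins of 1 Mb, the bin from 20 to 21 Mb came 1st, 4th and 2nd by number of summits in Bmal1 CKO 1, 2 and 3, and 4th, 2nd and 2nd in control 1, 2 and 3. The next bin, from 21 to 22 Mb, holds the 29 Defa genes and 9 of the Defb genes. It held 1, 46 and 1 summits in Bmal1 CKO lists and 41, 0 and 0 in control lists, and ranked 1557 in Bmal1 CKO 2 and 1885 in control 1. The dense stretch also ran on below 20 Mb: between Defb7 and 20 Mb (0.502 Mb, 0 defensin genes) there were 30, 80 and 9 peaks in Bmal1 CKO lists and 69, 7 and 5 in control lists.

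From Defa21 to Defa24 (chr8:21025545-21735471, 0.710 Mb), which holds all 29 Defa genes, the long lists were under their own mean density. There were 1, 31 and 1 peaks in Bmal1 CKO 1, 2 and 3, and 26, 0 and 0 in control 1, 2 and 3. Observed over expected was 0.860 in Bmal1 CKO 2 and 0.556 in control 1. The 4 shorter lists expected 0.375 (Bmal1 CKO 1), 0.135 (Bmal1 CKO 3), 0.107 (control 2) and 0.0970 (control 3) peaks over this span, so 0 or 1 peak there says little about density. Across the 9 Defb genes that follow, Defb1 to Defb13 (chr8:21776555-21948622), there were 9 peaks in Bmal1 CKO 2 (1.03 times the expected number), 8 in control 1 (0.705 times) and 0 in the other 4 lists. Defb33 stands alone between the dense stretch and Defa21. From its lower end to Defa21 there were 4 peaks in Bmal1 CKO 2, 8 in control 1 and 0 in the other 4 lists.

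The Defb clusters outside the interval were near or under the mean density too. They are 5 genes on chromosome 14 (chr14:62977524-63048606), 11 on chromosome 2 (chr2:152459055-152623053) and 14 on chromosome 8 (chr8:18974914-19497775), 30 genes over 0.758 Mb in all. Summed, they held 0, 26 and 0 peaks in Bmal1 CKO 1, 2 and 3, and 50, 0 and 0 in control 1, 2 and 3, which is 0.676 times the expected number in Bmal1 CKO 2 and 1.00 times in control 1. By cluster, Bmal1 CKO 2 had 4 peaks on chromosome 14, 6 on chromosome 2 and 16 on chromosome 8, and control 1 had 5, 18 and 27. The chromosome 2 cluster was the one that stood on different sides of the mean, at 0.720 times in Bmal1 CKO 2 and 1.66 times in control 1. The pair Defb18 and Defb41 on chromosome 1 held 0 peaks between its ends in all 6 lists, where the long lists expected 1.46 (Bmal1 CKO 2) and 1.89 (control 1).

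**Figure D2:**
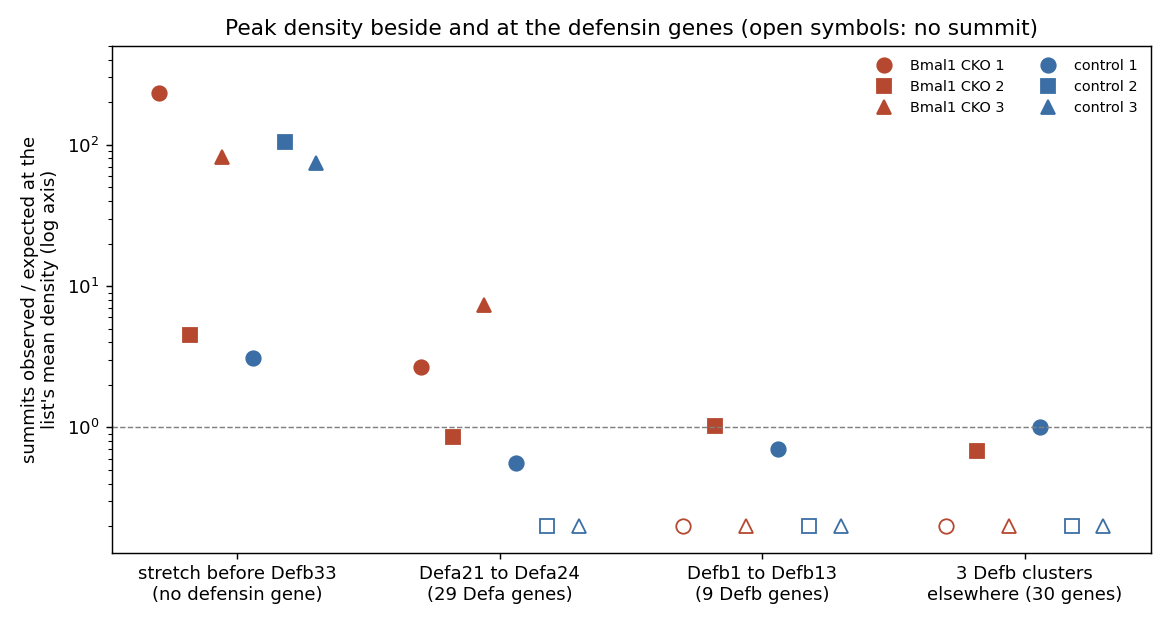
Summits observed over summits expected at the mean density of the same list (log axis), for the stretch from 20 Mb to Defb33, the Defa genes, the Defb genes after them and the 3 Defb clusters elsewhere, with Bmal1 CKO in red and control in blue; each symbol is 1 library and open symbols at the foot mark 0 summits. All 6 libraries lie above 1 in the stretch with no defensin gene, and the 2 long lists lie between 0.556 and 1.03 over the 3 sets of defensin genes.

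On the log2 scale with 0.5 added to both numbers, the interval exceeded the 3 Defb clusters by 7.0, 1.88 and 4.50 in Bmal1 CKO 1, 2 and 3, and by 0.81, 4.47 and 3.89 in control 1, 2 and 3. The Defb clusters held 0 peaks in Bmal1 CKO 1, Bmal1 CKO 3, control 2 and control 3. In those lists the Defb side is set by list length and the added 0.5, so the long lists alone measure this contrast. With the span from the first to the last Defa gene in place of the interval, these differences became 1.63, 0.34 and 1.61 in Bmal1 CKO and -0.84, 0.02 and 0.02 in control. Most of the excess of the interval over the Defb clusters is the density of the stretch before Defb33.

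The background under the peaks differed between the stretch and the genes. No source used here states whether an input library was used. Without one, the peaks of a dense stretch count towards its own background, so this difference is not read apart from peak density. Each peak was set against the lowest expected background of its list, which is the level MACS2 uses where the surroundings are no higher than the genome. In the stretch before Defb33 the median peak stood on 3.11, 1.90 and 3.59 times that level in Bmal1 CKO 1, 2 and 3, and on 2.13, 3.72 and 3.43 times in control 1, 2 and 3. From Defa21 to Defa24 the background was at the lowest level at 1 of 1, 27 of 31 and 1 of 1 peaks in Bmal1 CKO and at 26 of 26 in control 1. Over whole lists that share was 12.5%, 39.0% and 5.97% in Bmal1 CKO 1, 2 and 3, and 33.0% in control 1. In the 3 Defb clusters elsewhere it was 16 of 26 peaks in Bmal1 CKO 2 and 25 of 50 in control 1. How reads that match several places were treated was not stated in any source used here, and its part in either background was not tested.

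**Figure D3:**
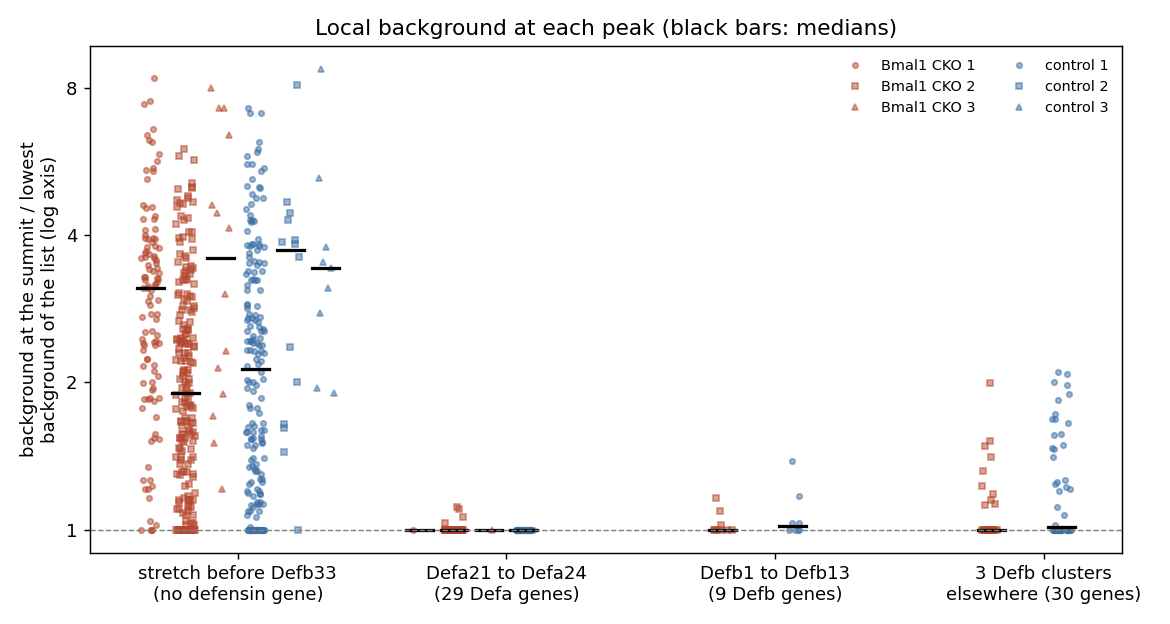
Expected background at each summit divided by the lowest expected background of the same list (log axis), by region, with Bmal1 CKO libraries in red left of control libraries in blue; each point is 1 peak and black bars are medians. Medians lie between 1.90 and 3.72 in the stretch with no defensin gene and at or next to 1.00 at the defensin genes.

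Counted by gene, 1, 41 and 1 of the 71 defensin genes had a summit in the gene or within 10 kb in Bmal1 CKO 1, 2 and 3, and 49, 0 and 0 had one in control 1, 2 and 3. The share of all protein-coding genes with such a summit was 1.99%, 87.8% and 1.08% in Bmal1 CKO, and 92.6%, 0.781% and 0.758% in control. The defensin shares were 1.41%, 57.7% and 1.41% in Bmal1 CKO and 69.0%, 0% and 0% in control, so within 10 kb the long lists marked a smaller share of defensin genes than of all genes. Defensin genes are also short: the median length was 0.973 kb for Defa genes and 3.21 kb for Defb genes, against 17.2 kb for all protein-coding genes. Per Mb of window, the summits around Defa genes were 0.923 times the expected number in Bmal1 CKO 2 and 0.533 times in control 1, and those around Defb genes were 0.748 times it in Bmal1 CKO 2 and 1.12 times in control 1.

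Split by family, the counts were these. Bmal1 CKO 2 had a summit within 10 kb of 16 of 29 Defa genes (55.2%) and 25 of 42 Defb genes (59.5%), and control 1 had one for 15 Defa genes (51.7%) and 34 Defb genes (81.0%). Both long lists marked the same 36 genes, 13 Defa and 23 Defb. A further 5 were marked in Bmal1 CKO 2 and not in control 1, 13 in control 1 and not in Bmal1 CKO 2, and 17 in neither. Of all protein-coding genes, 85.8% were marked in both, 2.02% in Bmal1 CKO 2 and not in control 1, 6.74% in control 1 and not in Bmal1 CKO 2, and 5.43% in neither. Among those 17 were Defa5, Defa20 and Defa24 of the intestinal family, and Defb2, Defb4 and Defb6 of the epithelial one. With 1 long list in each genotype, a difference between these lists has no replicate check.

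The count depended on the window. Just inside 10 kb lay Defa34 at 9904 bp and Defa35 at 9923 bp in Bmal1 CKO 2, and Defa25 at 9861 bp and Defa35 at 9918 bp in control 1. Just outside lay Defa24 at 10188 bp and Defb1 at 11506 bp in Bmal1 CKO 2, and Defa34 at 10170 bp and Defb34 at 10877 bp in control 1. Within the gene bodies alone, Bmal1 CKO 2 had summits in 15 defensin genes (21.1%, against 69.0% of all protein-coding genes) and control 1 in 19 (26.8%, against 78.9%). Within 50 kb, the counts were 70 of 71 in each (98.6%), against 97.6% of all genes in Bmal1 CKO 2 and 97.9% in control 1. The lower share of defensin genes was thus seen at 10 kb and in gene bodies. At 50 kb nearly all genes were marked, so a lower share could hardly show there.

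A total of 2 defensin genes were marked in a shorter list, Defa17 in Bmal1 CKO 1 and Defa23 in Bmal1 CKO 3. Each is 1.41% of the 71 genes, against 1.99% of all protein-coding genes in Bmal1 CKO 1 and 1.08% in Bmal1 CKO 3. In control 2 and control 3 the defensin share was 0%, against 0.781% and 0.758% of all genes. Neither family nor genotype is read from these counts. Defa23 (chr8:21055040-21056016) had a summit in Bmal1 CKO 3 that lay 101 bp before the start, inside the sequence printed above, with 8 fragments stacked on a background of 0.560 and a fold of 5.77. The long lists had a summit there as well, 75 bp after the start with a fold of 4.68 in Bmal1 CKO 2 (31 fragments on 5.83) and 80 bp after it with a fold of 4.26 in control 1 (18 on 3.46). Defa17 (chr8:21655767-21656736) had a summit in Bmal1 CKO 1 that lay 112 bp below its lower end, with 14 fragments on 2.78 and a fold of 3.96. In Bmal1 CKO 2 the summit lay within Defa17 with a fold of 3.37, and in control 1 it lay 140 bp below the lower end with a fold of 3.59. All folds are the authors' own and compare a summit with the background of its own library, so they rank peaks within a list and not between lists. The median fold over a whole list was 4.68, 2.96 and 7.14 in Bmal1 CKO 1, 2 and 3, and 3.54, 7.47 and 7.60 in control 1, 2 and 3.

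At annotated starts, the long lists met again on the same Defa genes. Of the 16 Defa genes with a RefSeq start, 4 (25%) had a summit within 250 bp of it in Bmal1 CKO 2 and 4 (25%) in control 1, the 4 printed above in each case. Over all protein-coding genes with such a start the share was 41.2% in Bmal1 CKO 2 and 47.8% in control 1. In Bmal1 CKO 3 it was 1 of 16 Defa genes (6.25%), Defa23, beside 0.0286% of all genes, which is 5 genes in all. That 6.25% rests on 1 summit of 8 stacked fragments and is not read as an enrichment. The summit of Defa2 lay 7 bp after the start in Bmal1 CKO 2 (fold 3.95) and 71 bp after it in control 1 (fold 3.59). That of Defa42 lay 86 bp after it in Bmal1 CKO 2 (fold 4.17) and 43 bp in control 1 (fold 4.48). That of Defa32 lay 133 bp after it in Bmal1 CKO 2 (fold 3.22) and 115 bp in control 1 (fold 5.60). All these summits but that of Defa23 in Bmal1 CKO 3 lay on the transcribed side.

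For Defb genes the start counts were 3 of 29 (10.3%) in Bmal1 CKO 2 and 4 of 29 (13.8%) in control 1. Bmal1 CKO 2 had its summits 44 bp after the start of Defb10, 52 bp after that of Defb9 and 56 bp after that of Defb36. Control 1 had them 152 bp after the start of Defb36, and 68, 150 and 194 bp before those of Defb29, Defb15 and Defb21. Defb36 was thus the one Defb gene marked in both, with a fold of 2.94 on a background of 11.6 in Bmal1 CKO 2 and of 3.46 on 6.80 in control 1.

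**Figure D4:**
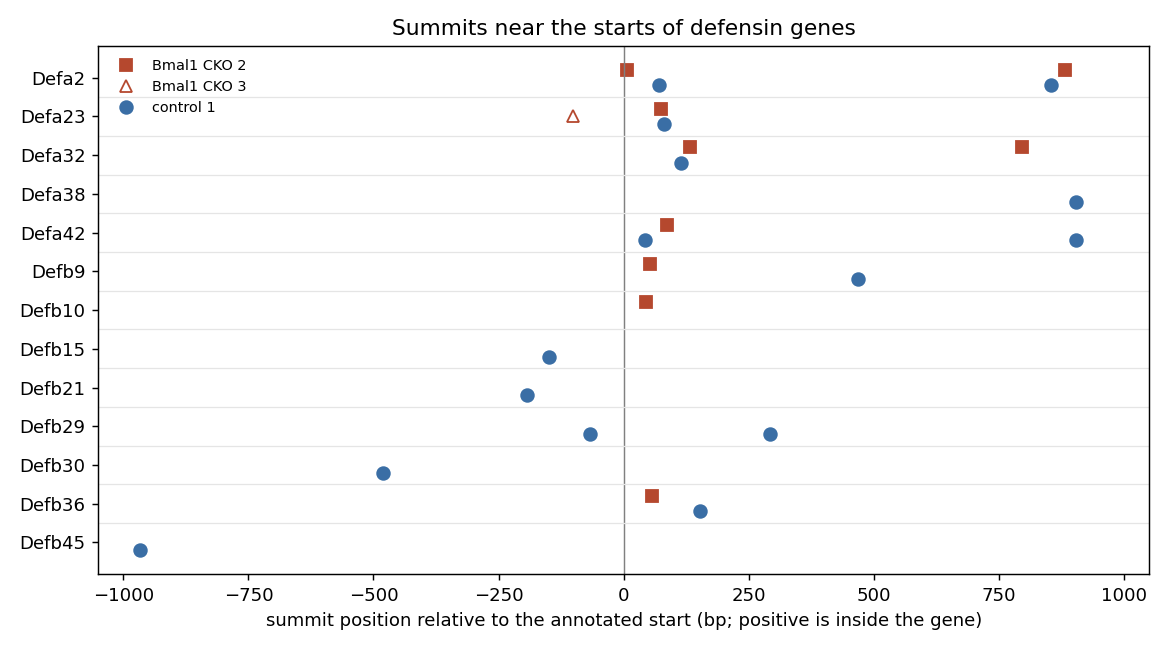
Position in bp of each summit within 1 kb of a RefSeq start of a defensin gene, in the direction of transcription, for the libraries with any such summit: Bmal1 CKO 2 as red squares, Bmal1 CKO 3 as an open red triangle and control 1 as blue circles. Defa2, Defa23, Defa32 and Defa42 have a summit in both long lists between 7 and 133 bp after the start, and Defa2 has another in both between 855 and 882 bp after it.

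Identical copies of 3 of these genes had no summit at their start. The promoter table holds 5 pairs of Defa genes whose 300 bases are 100% identical, 10 genes in all. Defa23 is identical to Defa31, whose start had its nearest summit 6008 bp away in Bmal1 CKO 2 and 5913 bp away in control 1. Defa2 is identical to Defa20, whose nearest summits lay 19905 bp (Bmal1 CKO 2) and 19887 bp (control 1) away. Defa42 is identical to Defa43, whose nearest summits lay 40627 bp (Bmal1 CKO 2) and 46518 bp (control 1) away. The pairs Defa21 with Defa22 and Defa36 with Defa37 had no summit within 10 kb of a start in either long list. A read that lies wholly within such a copy cannot be assigned to 1 of the 2 genes by its letters, so a summit at a start belongs to the sequence the copies share and its gene is uncertain; the part of read placement was not tested.

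The highest summits near Defa genes were those of Defa42, a cryptdin gene on the minus strand. Its top summit within 10 kb lay 3111 bp upstream of its start with a fold of 5.48 in Bmal1 CKO 2 (40 fragments on 6.48) and 3167 bp upstream with a fold of 7.40 in control 1 (32 on 3.46), the highest fold of the family in each list. The other top Defa genes were Defa23 and Defa35 at 4.68, which share 1 summit, and Defa2 and Defa38 at 3.95 in Bmal1 CKO 2. In control 1 they were Defa32 at 5.60, Defa30 at 5.38, and at 4.26 Defa-ps8 and Defa39, each at a summit of its own, and Defa23 and Defa35, which share 1. Over all marked Defa genes the top fold ran from 2.78 to 5.48 in Bmal1 CKO 2 and from 2.91 to 7.40 in control 1.

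Among Defb genes the top fold ran from 2.32 to 4.10 in Bmal1 CKO 2 and from 2.61 to 6.04 in control 1. Defb7 led Bmal1 CKO 2 at 4.10, with the summit 1926 bp from the gene, and had 4.71 in control 1 at another summit 3397 bp from the gene. Defb13 and Defb35 followed in Bmal1 CKO 2 at 3.59 from 1 summit between them, then Defb10, Defb20 and Defb22 at 3.53. The summit of Defb20 and Defb22 is 1 summit and lay inside Defb22, which encodes a protein of the sperm surface. In control 1 Defb30 and Defb43 shared 1 summit with a fold of 6.04 that lay 8266 bp from Defb30 and 7733 bp from Defb43, and Defb8 (5.16) and Defb22 (4.28) followed. Neighbouring genes that share a summit are not separate observations.

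Summits within 1 kb of either end of a gene were seen in both long lists for 6 of 29 Defa genes and 5 of 42 Defb genes, against 54.7% of all protein-coding genes. By the higher fold of those summits in either list, the first were Defa32 (3.37 in Bmal1 CKO 2 and 5.60 in control 1), Defa23 (4.68 in Bmal1 CKO 2 and 4.26 in control 1) and Defa42 (4.17 in Bmal1 CKO 2 and 4.48 in control 1). Defa27 (2.93 in Bmal1 CKO 2) and Defb47 (2.79 in Bmal1 CKO 2) followed, each with 4.04 in control 1.

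By genotype, the same counts and densities spread widely between libraries, and they are given with no test because the genes and the interval were chosen on them. The percentage of defensin genes with a summit averaged 20.2 ± 32.5 in Bmal1 CKO and 23.0 ± 39.8 in control (SD, n = 3 each), a difference of -2.82 percentage points. The log2 density ratio of the 20 to 22 Mb interval averaged 3.87 ± 2.42 in Bmal1 CKO and 2.87 ± 1.81 in control (SD, n = 3 each), a difference of 1.00. Both differences were smaller than the SD of either group. That of the 3 Defb clusters averaged -0.59 ± 0.24 in Bmal1 CKO and -0.19 ± 0.17 in control (SD, n = 3 each), but these clusters held 0 peaks in the 4 shorter lists, where the ratio is set by the list's length alone, so no difference is read from it.

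The fold at the summit was not used to choose the genes or the interval, but it is not independent of peak density. It is a ratio to a local background, to which the peaks of a dense stretch count if no input library was used. Interval peaks had a median fold 0.12 lower on the log2 scale than the rest of their list on average over 6 libraries (SD 0.40). The exact sign-flip permutation p was 0.50, with a smallest possible p of 0.0312. The median fold was higher in 2 of 6 libraries, the long lists Bmal1 CKO 2 (by 0.39) and control 1 (by 0.32). In the shorter lists the difference ran from -0.62 to -0.19, so the mean joins opposite directions. Peaks of the 3 Defb clusters could be compared in the 2 long lists, and their mean difference of -0.01 had an exact sign-flip p of 1.00, with a smallest possible p of 0.50. The interval difference was not larger than the spread between libraries. Most interval peaks in that test lie in the stretch with no defensin gene. The Defb test could not give a p below 0.50, so nothing is read from it.

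Peaks of the interval recurred between lists. The same share over all peaks of a list is not given here, so recurrence is not read as particular to this interval. Of the Bmal1 CKO 1 peaks 85 of 110 (77.3%) overlapped a Bmal1 CKO 2 peak by at least 1 base and 75 of 110 (68.2%) a control 1 peak. Of the Bmal1 CKO 3 peaks 15 of 15 overlapped each long list, of the control 2 peaks 13 of 14 each, and of the control 3 peaks 7 of 9 (Bmal1 CKO 2) and 6 of 9 (control 1). Between the long lists, 181 of 255 Bmal1 CKO 2 peaks (71.0%) overlapped a control 1 peak, and 184 of 231 control 1 peaks (79.7%) overlapped a Bmal1 CKO 2 peak. Merged, the peaks formed 326 regions, of which 135 were in 1 library, 114 in 2, 54 in 3, 15 in 4, 7 in 5 and 1 in all 6. From Defa21 to Defa24 there were 40 regions, 17 of them in both long lists, 2 in 3 libraries and 0 in more.

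Other genes of antimicrobial defence were read in the same way from a list of 25, of which 24 were found in the gene table. None had a summit within 10 kb in the 4 shorter lists. There the share of all genes was 1.99% in Bmal1 CKO 1, 1.08% in Bmal1 CKO 3, 0.781% in control 2 and 0.758% in control 3. At shares so low, none of 24 says little about these genes. In the long lists 15 of 24 (62.5%, against 87.8% of all genes) had one in Bmal1 CKO 2 and 20 of 24 (83.3%, against 92.6%) in control 1. Mmp7, which activates the mouse alpha-defensins, had a top fold of 3.37 in Bmal1 CKO 2 and 3.14 in control 1. Nod2, a sensor of bacterial cell wall in Paneth cells, had 3.12 in Bmal1 CKO 2 and 5.88 in control 1. Ccr6, a chemokine receptor that beta-defensins engage, had 3.35 in Bmal1 CKO 2 and 3.96 in control 1. Hamp, the iron hormone hepcidin, which is also an antimicrobial peptide, had 4.27 in Bmal1 CKO 2 and 3.97 in control 1. The lectin genes Reg3a, Reg3b and Reg3g and the calprotectin gene S100a8 had none in either long list.

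Other tandem gene families gave both kinds of density. The 3 Pramel clusters (3.38 Mb) held 49.3, 3.31 and 6.21 times the expected peaks in Bmal1 CKO 1, 2 and 3, and 1.84, 5.90 and 0 times in control 1, 2 and 3. The 13 clusters of Vmn2r pheromone receptors (12.3 Mb) held 3.70, 0.797 and 2.99 times the expected number in Bmal1 CKO and 0.644, 1.62 and 0.596 times in control. The cluster of class I olfactory receptors (2.89 Mb) held 0.769 times in Bmal1 CKO 2, 0.781 times in control 1 and 0 peaks in the other 4 lists. In the long lists the span of Defa genes, at 0.860 times in Bmal1 CKO 2 and 0.556 times in control 1, lay beside the receptor families, and the stretch before Defb33, at 4.52 times in Bmal1 CKO 2 and 3.09 times in control 1, lay beyond the Pramel clusters.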

How the data were processed

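The 6 ChIP-seq libraries, 3 Bmal1 CKO and 3 control, come as 1 peak list each, assigned to libraries by the series record, since numbers in the list names differ from those in the sample titles. Trim Galore, Bowtie2 and MACS2 are the tools, and mm10 the build, in the submitters' processing notes; versions, settings, any input library and the handling of reads with several matches are stated in none of the sources used here. The authors deposited per peak a score, a fold enrichment at the summit (a ratio to the local background of that library), a −log10 p-value, a −log10 q-value and the summit position. The lowest −log10 q-value lay between 1.30 and 2.53. The lists carry no read totals. Stacked fragments and expected background were solved from the fold and the p-value at each summit, and 100.0% of stacked numbers came out whole within 0.02. Background is thus the depth behind each value; intervals on it were not made. This step was tested on data simulated with the same formula, at backgrounds below the highest of the dense stretch.

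Genes, biotypes and coordinates are RefSeq GRCm38.p6, and promoters (250 bases before to 50 after a start) matched 45 of 71 genes by gene identifier. Expected peaks are a list's peaks divided by 2722.3 Mb (each chromosome up to the last peak of any list, summed) and multiplied by the region's length, and log2 ratios add 0.5 to both numbers. Defb genes were joined into clusters at gaps of up to 500 kb with at least 3 genes. Promoter identity comes from global alignment with gaps counted (Biopython 1.88). Folds were tested by exact permutation over libraries; genotype differences in counts and densities, on which the genes and the interval were chosen, are given with no p (Python 3.11.15, NumPy 2.4.6, SciPy 1.17.1, pandas 2.3.3), and figures used Matplotlib 3.10.9. Genes named are those marked in a shorter list, the 5 Defa and 5 Defb genes of highest fold in each long list, those with a summit within 1 kb of an end in both long lists, and the nearest on each side of the 10 kb limit; unmarked genes, genes with start summits and identical copies were named after their values were seen. The members and lists were chosen with earlier results of these data known, and the division of the interval at defensin genes, the background ratio, the 250 bp start window and promoter identity were added after seeing the peaks. Replicate numbers are shared between groups, but nothing states a shared animal, litter or day. The alternatives tried were other peak thresholds, equal numbers of peaks, other windows, spans and cluster gaps, each library left out, the 2 long lists left out and a replicate block.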

Additional observations from a re-analysis of the deposited data

How the results depend on the processing

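The Bmal1 CKO minus control difference in the percentage of defensin genes with a summit (-2.82) had no stable direction: it was 0 with the same number of peaks in each list (372), 1.41 without the 2 longest lists, 4.23 with a 50 kb window, and -21.6 to 20.2 with 1 library left out. The difference in interval density (log2 1.00) ranged from -0.14 to 2.27 with 1 library left out, and turned below 0 without Bmal1 CKO replicate 1 (-0.14) or control replicate 1 (-0.03). Over the span of Defa genes it was 1.06, where it rests on 1 peak each in Bmal1 CKO 1 and 3. The difference for the Defb clusters (-0.40) was 0 with equal numbers of peaks and kept its sign with 1 library left out (-0.51 to -0.27). These clusters held 0 peaks in the 4 shorter lists, where the ratio is set by list length and the added 0.5. The kept sign is therefore not read as a stable difference. The mean excess of the interval over the Defb clusters (log2 3.76) fell to 0.46 over the span of Defa genes and lay between 3.76 and 4.57 under the other 5 alternatives. Among these, cluster gaps of 200 kb and 1 Mb gave the same clusters as 500 kb, so they could not move it. This mean includes the 4 shorter lists, where the Defb side is set by list length and the added 0.5. The mean fold difference of interval peaks kept its sign under all 10 alternatives, which include the q-value and the peak width in place of the fold. By library the fold difference was above 0 in the 2 long lists and below 0 in each shorter list. With the q-value or the width in its place, Bmal1 CKO 1 was above 0 too (1.45 in −log10 q-value and 0.00527 in log2 width). The kept sign of the mean thus joins opposite directions. The fold difference of Defb clusters was 0.0108 in Bmal1 CKO 2 alone and -0.0231 in control 1 alone and could not be computed without both. Regions shared by at least 2 libraries numbered 191 under both overlap rules. With the replicate number as a block the 3 differences were -2.82, 1.00 and -0.40. With groups of equal size a block leaves a mean difference unchanged by arithmetic, so this is no check of them. The libraries share a number, and no shared source is stated. Under 1 peak was expected over the span of Defa genes in each of the 4 shorter lists, so these say little about density there; the part of depth was not tested.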

Other observations

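A single region of the interval was a peak in all 6 libraries, chr8:20153224-20154100, in the stretch before Defb33 and outside any annotated gene. Its fold was 4.59, 5.24 and 5.59 in Bmal1 CKO 1, 2 and 3, and 5.83, 5.14 and 5.10 in control 1, 2 and 3. The background under it was 10.1, 17.7 and 2.58 fragments in Bmal1 CKO and 11.7, 2.70 and 2.92 in control. These values are several times the lowest of each list. The region is not alone in the dense stretch: between Defb7 and 20 Mb, outside the interval, 4 further regions were peaks in all 6 libraries.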
